A study of Mus musculus with 9 samples.

Results

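Csf1, its receptor Csf1r and a set of genes expressed by macrophages were followed in dorsal root ganglia (DRG) with and without sciatic nerve injury. The set held 10 genes, chosen by name: Csf1, Csf1r, Tyrobp, Aif1, Cd68, Adgre1 (listed on the array under its older symbol Emr1), Cd14, Mrc1, Cd163 and Trem2. They were represented by 15 of the 41174 probes of a mouse whole-genome array, and all 10 were among the 20898 genes tested. Total RNA from L3/L4 DRG of adult mice was hybridised in the Cy5 channel of 9 arrays, with universal mouse reference RNA, a commercial standard, in the Cy3 channel of each. The injured group had 5 samples taken 3 days after sciatic nerve transection, and the uninjured group had 4 samples labelled as controls. Elsewhere the study's text gives an earlier time for these arrays and speaks of nerve crush, and it does not say for the arrays whether control ganglia came from other animals or from the opposite side. The series text names L4 ganglia only, and the source text of the controls repeats the wording of the injured samples. Every sample of both groups carried the labels cre.neg and jun.wt, with no further treatment named. The labels identify no animals, so the p-values below measure the spread between these samples. The ganglia were whole tissue, in which more cells of a type and more RNA per cell cannot be told apart.

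Csf1 is the cytokine on which macrophages depend for survival and proliferation, and it acts through the receptor tyrosine kinase Csf1r on macrophages, monocytes and microglia. Sensory neurons are known to produce Csf1 after their peripheral axons are cut. The ganglion contains its own macrophages, which lie close to the neuronal cell bodies and blood vessels and are joined by blood monocytes after nerve injury.

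PU.1, the product of Spi1, is a transcription factor required for macrophage development, and AP-1 is formed by Jun and Fos proteins. The 250 bases before the annotated start were therefore read for a PU.1 core (GAGGAAG) and an AP-1 element (TGACTCA), on both strands. The sequences come from RefSeq on GRCm38.p6. The promoter set used here held a window for Csf1, Aif1, Cd68, Mrc1, Cd163 and Trem2. Csf1r, Tyrobp, Adgre1 and Cd14 had no window in it and were not searched. Of 32851 promoter windows of this length, 10.6% held the PU.1 core and 4.46% the AP-1 element. The core occurred 2 times before Mrc1, beginning 168 and 36 bases upstream of the start, and 1 time before Trem2, beginning 41 bases upstream. The AP-1 element occurred 2 times before Cd68, beginning 149 and 24 bases upstream. Neither motif was found in the windows of Csf1, Aif1 and Cd163. The ligand is shown beside the genes with matches, 5′ to 3′ along the gene, with matches in capitals; each is the reverse complement of the motif as spelled above. A match is a string of letters and was not tested as a binding site.
Csf1, chr3:107760470-107760719, minus strand: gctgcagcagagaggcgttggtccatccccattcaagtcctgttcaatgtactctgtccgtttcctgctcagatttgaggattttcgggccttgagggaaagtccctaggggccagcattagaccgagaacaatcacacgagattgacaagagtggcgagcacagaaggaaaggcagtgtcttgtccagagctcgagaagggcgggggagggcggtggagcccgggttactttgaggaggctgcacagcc
Mrc1, chr2:14229164-14229413, plus strand: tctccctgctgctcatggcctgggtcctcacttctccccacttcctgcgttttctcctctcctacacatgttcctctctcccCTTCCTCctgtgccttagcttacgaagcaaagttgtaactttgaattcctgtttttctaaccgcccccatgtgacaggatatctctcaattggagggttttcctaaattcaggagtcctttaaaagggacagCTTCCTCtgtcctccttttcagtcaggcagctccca
Trem2, chr17:48346151-48346400, plus strand: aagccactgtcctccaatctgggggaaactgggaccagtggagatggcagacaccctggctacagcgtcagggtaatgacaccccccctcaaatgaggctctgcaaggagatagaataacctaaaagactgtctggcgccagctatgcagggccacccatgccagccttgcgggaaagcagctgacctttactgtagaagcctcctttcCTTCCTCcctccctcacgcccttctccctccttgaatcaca
Cd68, chr11:69666171-69666420, minus strand: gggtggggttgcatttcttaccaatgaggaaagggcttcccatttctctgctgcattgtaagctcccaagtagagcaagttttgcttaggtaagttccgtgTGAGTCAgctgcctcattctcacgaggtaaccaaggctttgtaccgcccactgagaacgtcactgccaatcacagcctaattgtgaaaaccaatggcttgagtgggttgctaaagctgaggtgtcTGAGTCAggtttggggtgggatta

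All values below are log2 ratios of DRG over reference RNA, and a change is the injured minus the uninjured mean of these ratios. The ratios are read across arrays for each gene, and no gene's ratio is set against another's as a level. The ganglion was recognisable on every array: the mean log2 ratio of 12 DRG neuron genes lay between 5.13 and 5.60. Of 9 axon injury genes tested, 9 were higher in the injured group (median change 3.24), with Atf3 at 5.14. Injured arrays 2 and 4 stood apart through muscle genes, whose mean lay 2.07 and 3.41 above the uninjured mean, against -0.0832 to 0.303 on the other injured arrays.

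Csf1 rose on every injured array, and of the receptor and macrophage genes Aif1 and Cd14 passed the test with it. These 3 of 10 genes were called higher at an adjusted p under 0.05 (limma, Benjamini-Hochberg over all genes) and 0 were called lower. Across all genes tested 25.4% were called, and 11.5% were called higher. The same 3 genes were those in which every injured array lay above every uninjured array, a pattern seen in 10.8% of the genes with a value on all arrays, while 23.9% did not overlap in either direction. The median change over the 10 genes was 0.57, and that over all genes tested was 0.0018.

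**Figure D1:**
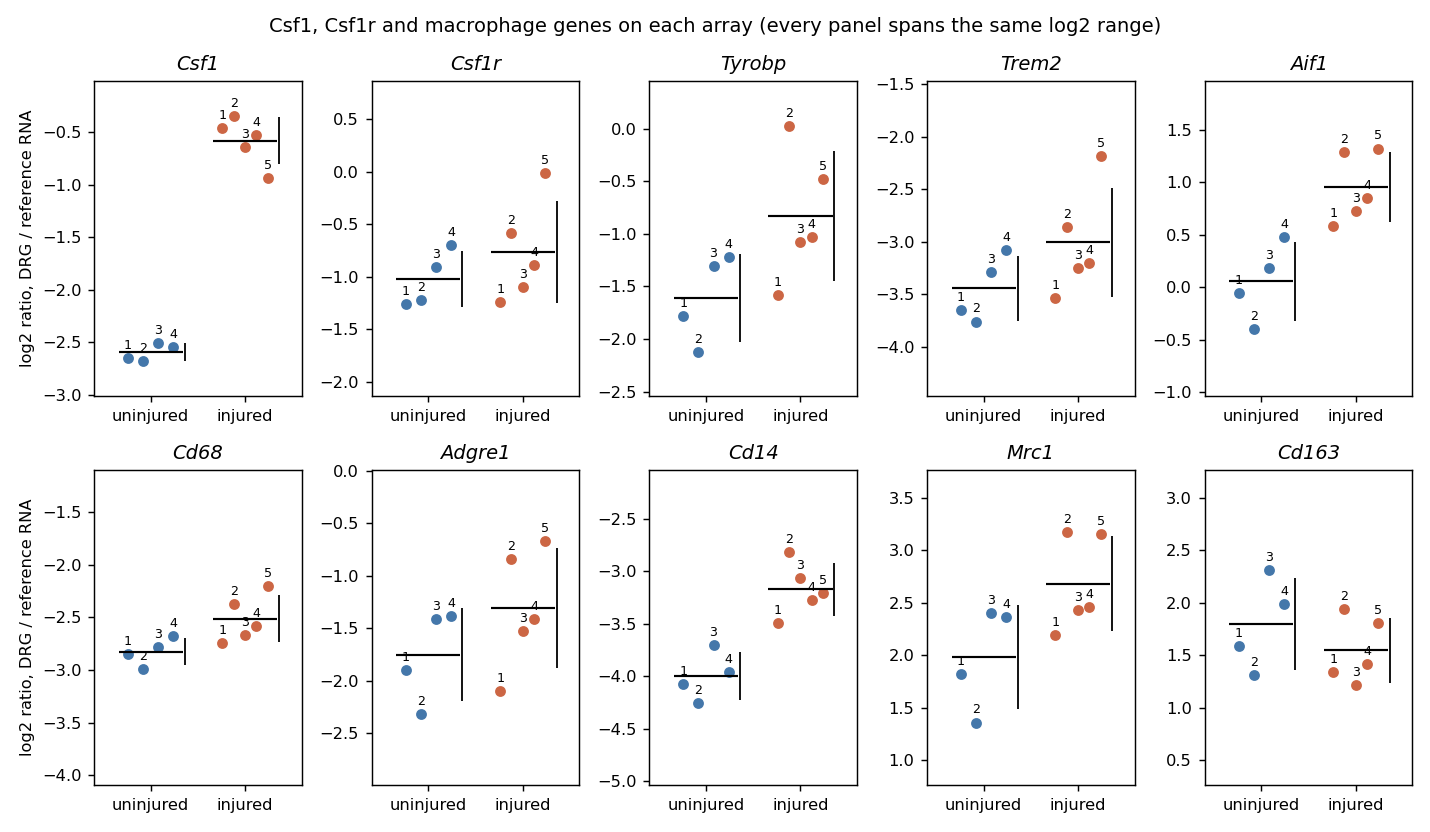
Log2 ratio of DRG over reference RNA for the 10 genes on 4 uninjured (blue) and 5 injured (orange) arrays, numbered by array; horizontal bars are group means and vertical bars SD. Csf1 separates the groups by far more than its spread, Aif1 and Cd14 separate them narrowly, and the other genes overlap, with injured array 1 low and injured arrays 2 and 5 high.

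Csf1, the ligand, was measured by 10 copies of its probe on each array, at chr3:107559703-107559762 of mm7 on the minus strand. On uninjured arrays 1 to 4 its log2 ratio was -2.65, -2.68, -2.50 and -2.55. On injured arrays 1 to 5 it was -0.46, -0.35, -0.64, -0.53 and -0.93. The lowest injured array was well clear of the highest uninjured array, and the group means were -2.59 ± 0.083 (SD, n = 4) and -0.58 ± 0.22 (SD, n = 5). The rise of 2.01 (SE 0.11, 95% interval 1.77 to 2.25) corresponded to 4.03-fold, with a limma adjusted p of 7.78e-07. Over all 126 ways to divide the arrays into groups of this size, an exact permutation test (two-sided) gave p = 0.00794, the smallest it can give. Repeated spots of one array differed by an SD of 0.019 to 0.052, less than the arrays of either group differed from each other. Before normalisation, the background-subtracted Cy5 signal was 1838 to 2383 on uninjured arrays and 4178 to 10980 on injured arrays. Among all genes tested, the rise ranked 51 from the top.

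Csf1r, the receptor for Csf1, gave no call. Its uninjured ratios were -1.26, -1.22, -0.90 and -0.70 and its injured ratios -1.24, -0.58, -1.10, -0.89 and -0.015 on arrays 1 to 5. Only injured arrays 2 and 5 exceeded all uninjured arrays, and array 1 matched the lowest of them. The change was 0.26 (SE 0.23, 95% interval -0.25 to 0.76, limma adjusted p = 0.458). It was 0.071 without injured array 5 and 0.65 within the slide that held both groups. The other Csf1r probes, which were dimmer, changed by 0.18 (SE 0.17) and 0.10 (SE 0.074).

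Ligand and receptor were then compared on each array by subtracting the Csf1r from the Csf1 ratio. The difference was -1.39, -1.45, -1.60 and -1.85 on uninjured arrays 1 to 4. It was 0.78, 0.23, 0.45, 0.36 and -0.92 on injured arrays 1 to 5. The groups did not overlap, with injured array 5 the nearest to the uninjured arrays. Csf1 changed by 1.75 more than Csf1r (exact permutation p = 0.0159, two-sided).

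Tyrobp and Trem2 act together at the macrophage surface: Trem2 binds lipids and Tyrobp is the adaptor that carries its signal. Tyrobp read -1.78, -2.12, -1.31 and -1.22 on uninjured arrays 1 to 4. Its injured values were -1.58, 0.031, -1.08, -1.03 and -0.47. Injured arrays 2 to 5 lay above every uninjured array and injured array 1 did not. The change of 0.78 (SE 0.30, 95% interval 0.11 to 1.45) did not pass the test (limma adjusted p = 0.0849). Trem2 read -3.64, -3.76, -3.29 and -3.08 on uninjured arrays and -3.53, -2.86, -3.25, -3.20 and -2.18 on injured arrays. Injured array 5 was high and injured arrays 1, 3 and 4 lay within the uninjured range. Its change was 0.44 (SE 0.25, 95% interval -0.11 to 0.99, limma adjusted p = 0.233), and 0.24 (SE 0.16) by its dimmer probe. Without injured array 5 it was 0.23, and within the slide that held both groups 0.79.

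Aif1, which encodes the actin-binding protein Iba1 of macrophages and microglia, read -0.056, -0.40, 0.18 and 0.48 on uninjured arrays 1 to 4. On injured arrays 1 to 5 it read 0.58, 1.29, 0.72, 0.85 and 1.32. The groups did not overlap, although injured array 1 cleared uninjured array 4 by little. The rise was 0.90 (SE 0.20, 95% interval 0.46 to 1.34), or 1.86-fold, with a limma adjusted p of 0.0076. Its dimmer probe gave 0.78 (SE 0.20).

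Cd68, a lysosomal membrane glycoprotein, read -2.85, -2.99, -2.78 and -2.68 on uninjured arrays and -2.74, -2.37, -2.67, -2.58 and -2.20 on injured arrays. Injured arrays 2 to 5 exceeded all uninjured arrays, array 3 by the least. The change of 0.31 (SE 0.11, 95% interval 0.061 to 0.56) missed the threshold (limma adjusted p = 0.0688). Adgre1, an adhesion receptor long used as a macrophage antigen, read -1.90, -2.31, -1.41 and -1.38 on uninjured arrays and -2.10, -0.84, -1.53, -1.41 and -0.67 on injured arrays. Only injured arrays 2 and 5 were above the uninjured range, and the change was 0.44 (SE 0.29, 95% interval -0.20 to 1.08, limma adjusted p = 0.304). It was 0.28 without injured array 5, 0.26 without uninjured array 2 and 0.70 within the slide that held both groups. Its other probe was not well above background on any array.

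Cd14, the coreceptor that passes bacterial lipopolysaccharide to Tlr4 and Ly96, read -4.07, -4.26, -3.70 and -3.96 on uninjured arrays 1 to 4. On injured arrays it read -3.49, -2.81, -3.07, -3.27 and -3.21. Every injured array exceeded every uninjured array, and the nearest values were injured array 1 and uninjured array 3. The rise was 0.83 (SE 0.14, 95% interval 0.51 to 1.14), or 1.77-fold, with a limma adjusted p of 0.00178.

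Mrc1 and Cd163 are scavenger receptors typical of macrophages that reside in tissues and around vessels. Mrc1, the mannose receptor, read 1.82, 1.36, 2.40 and 2.36 on uninjured arrays and 2.19, 3.17, 2.43, 2.46 and 3.15 on injured arrays. Injured arrays 2 to 5 lay above every uninjured array, arrays 3 and 4 by little. The change was 0.69 (SE 0.26, 95% interval 0.11 to 1.28, limma adjusted p = 0.0791). Cd163, which takes up haemoglobin bound to haptoglobin, read 1.59, 1.31, 2.31 and 1.99 on uninjured arrays and 1.34, 1.94, 1.22, 1.42 and 1.81 on injured arrays. No injured array exceeded uninjured array 3. Its change was -0.25 (SE 0.21, 95% interval -0.72 to 0.21, limma adjusted p = 0.423), and its reference signal was well above background on only 2 of 9 arrays. The change was -0.083 without uninjured array 3 and -0.42 without uninjured array 2.

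**Figure D2:**
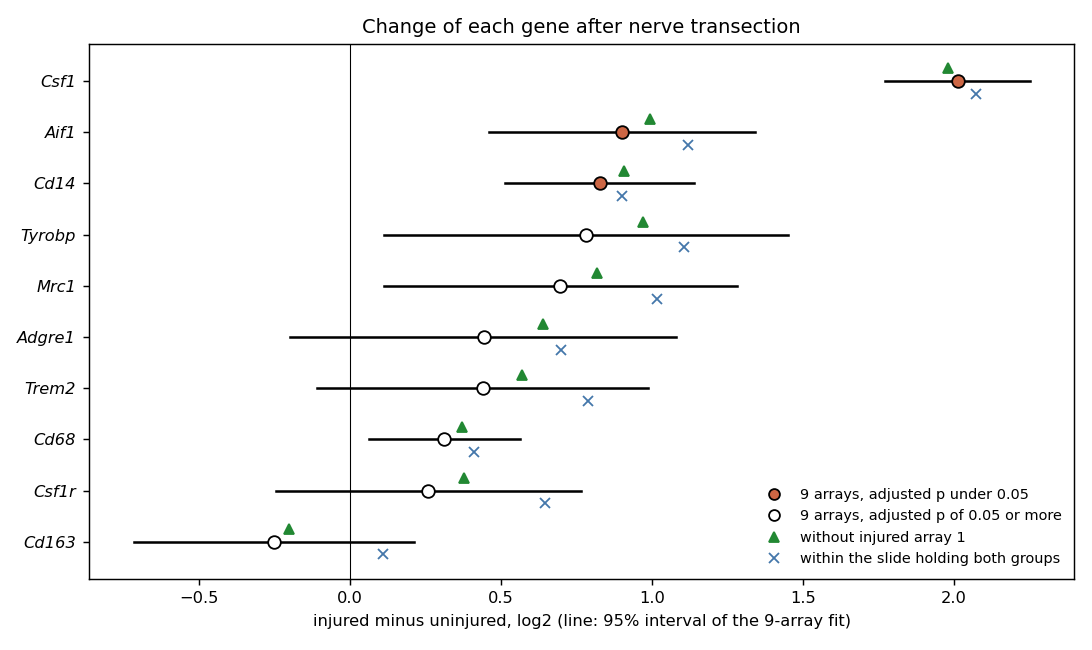
Injured minus uninjured log2 ratio of each gene, with the 95% interval of the fit to 9 arrays (line), the value without injured array 1 (triangle) and the value within the slide that held both groups (cross). Csf1 lies at 2.01, apart from the other genes, and Cd163 is the lowest at -0.25 and the one whose value within the slide (0.11) has the other sign.

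Ordered by change, the genes ran Csf1, Aif1, Cd14, Tyrobp, Mrc1, Adgre1, Trem2, Cd68, Csf1r and Cd163. Neighbours were compared by the SD of their differences over arrays of a group. Csf1 exceeded Aif1 by 1.11 (SE 0.27), Mrc1 exceeded Adgre1 by 0.25 (SE 0.096) and Csf1r exceeded Cd163 by 0.51 (SE 0.20), each more than that SD. Injured and uninjured arrays overlapped in the difference of Csf1r and Cd163, and not in those of the other named pairs. The other neighbours in the order differed by less than that SD. The comparison is a description and not a test.

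Csf1 and the macrophage genes ordered the injured arrays differently. On injured array 5 Csf1 was 1.66 above its uninjured mean, while Csf1r and the 8 macrophage genes were on average 0.93 above theirs, and this array was the highest of the injured arrays for 5 of the 9. Array 5 was also the dimmest, with a median Cy5 signal of 156.3 against 194.4 to 237.8 on the others. Before normalisation its Cy5 signal for Tyrobp, Cd68, Adgre1, Cd14 and Cd163 lay below that of uninjured array 3. For Csf1r, Aif1, Mrc1 and Trem2 it lay above every uninjured array. The bearing of this dimness on the ratios was not tested. Injured array 2 had the largest Csf1 rise (2.24) and a macrophage mean of 0.86, the highest for the remaining 4. In the longer lists described further on, array 2 stood above array 5 for the 24 pan-macrophage genes (0.82 and 0.64 above the uninjured mean), the Tyrobp and Trem2 partners (0.71 and 0.61), Csf1r signalling (0.44 and 0.41) and blood monocyte genes (1.08 and 0.56), and below it for resident and perivascular genes (0.61 and 0.87), so the order of these 2 arrays depended on the genes taken. Injured array 1 had the second Csf1 value (2.14) with a macrophage mean of 0.026, and was the lowest injured array for 8 of the 9. Injured arrays 3 and 4 lay between, with Csf1 at 1.95 and 2.06 and macrophage means of 0.28 and 0.35. Csf1 thus stayed high on all 5 arrays across macrophage means from 0.026 to 0.93. The macrophage genes also moved together in uninjured ganglia: all 9 were below their mean on arrays 1 and 2 (averages -0.15 and -0.40) and all 9 above it on arrays 3 and 4 (0.26 and 0.29). The mean of 10 fibroblast and vessel genes moved the same way, at -0.16, -0.48, 0.40 and 0.23 on uninjured arrays 1 to 4 and at -0.056, 0.32, -0.0084, 0.13 and 0.62 on injured arrays 1 to 5. The part of these cells in the macrophage gene values was not tested. The 2 groups form separate clusters of fewer than 6 arrays each, so no correlation is given and the relation between ligand and macrophage genes was not tested.

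**Figure D3:**
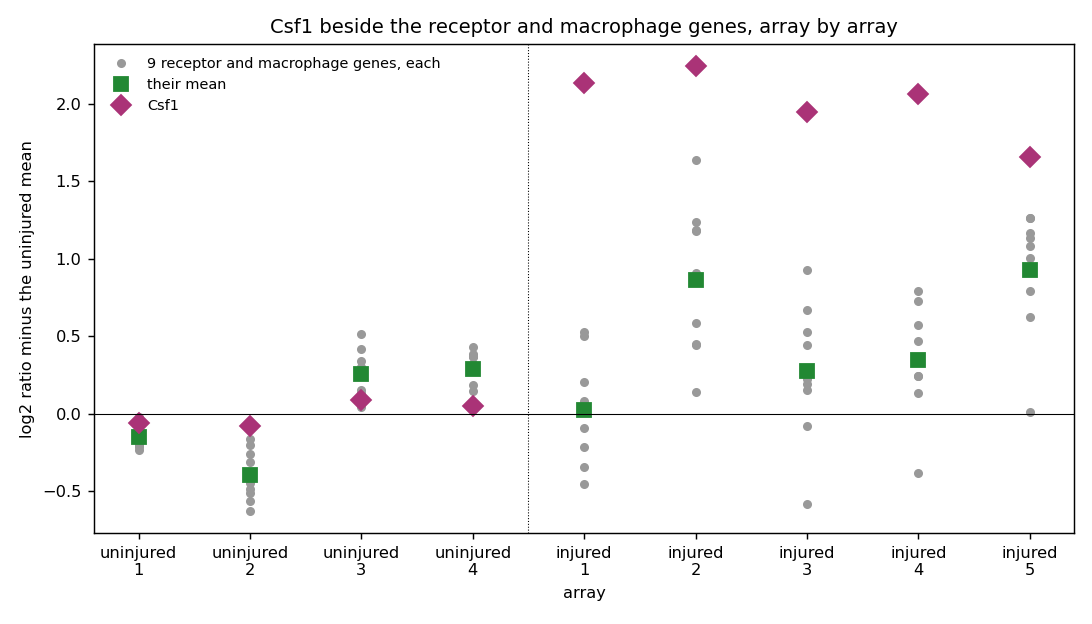
For each of the 9 arrays, the log2 ratio minus the uninjured mean of that gene, for Csf1 (diamonds), Csf1r and the 8 macrophage genes (grey circles) and the mean of these 9 (squares). Csf1 lies between 1.66 and 2.24 on the injured arrays while the mean of the other 9 ranges from 0.026 on injured array 1 to 0.93 on injured array 5.

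When arrays were left out singly, the number of calls among the 10 genes changed only for injured array 1. Without it 6 genes were called, beside 5239 of all genes (2481 higher): Csf1, Aif1 and Cd14 together with Tyrobp (0.97, limma adjusted p = 0.0283), Cd68 (0.37, adjusted p = 0.037) and Mrc1 (0.82, adjusted p = 0.0471). Leaving out any other array gave the same 3 genes. Slides were unevenly filled: 3 uninjured arrays shared a slide, 2 injured arrays another, and the slide between held 1 uninjured and 3 injured arrays. Within that slide the Csf1 difference was 2.07, Aif1 differed by 1.12 and Cd14 by 0.90. These differences rest on uninjured array 1 alone, where Csf1r and the macrophage genes averaged -0.15 from their uninjured mean. The injured arrays there were 1, 2 and 5. With slide as a fixed block, Csf1 stayed called (limma adjusted p = 0.00151), whereas Aif1 (adjusted p = 0.115) and Cd14 (adjusted p = 0.0959) did not.

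Blood and muscle genes moved on some of the same arrays. Their calls stand beside 11.5% called higher among all genes tested. Of 11 neutrophil genes tested, 2 were called higher, and the median change of the 11 was 1.1. The called genes were Mpo (1.49), the enzyme myeloperoxidase, and Il1r2 (0.42), a decoy receptor for interleukin-1. Elane and Ly6g were not tested: of 13 neutrophil genes listed, 12 were found on the array and 11 passed the signal filter. The mean of this list was 0.67 to 1.39 on uninjured and 1.36 to 3.62 on injured arrays, highest on injured array 2, where Tyrobp, Cd14, Mrc1 and Cd163 were also highest among injured arrays. Of 4 red blood cell genes 0 were called, of 9 muscle genes 0; their medians were 0.71 and 1.31. The red blood cell mean lay 1.42 above the uninjured mean on injured array 2, 0.71 on array 4 and 1.03 on array 5. The part of these cells in the macrophage gene values was not tested. Without injured arrays 2 and 4, a choice made after their muscle genes were seen, Csf1 (1.92), Aif1 (0.82, limma adjusted p = 0.0472) and Cd14 (0.74, adjusted p = 0.0115) were called. The medians of the neutrophil, red blood cell and muscle lists were then 0.44, 0.43 and 0.019.

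Beyond the 10 genes, the Csf family was measured through 7 of 12 ligands and receptors, of which 3 were called higher: Csf1, Csf2rb (1.06, SE 0.15, limma adjusted p = 0.000561), the signalling chain shared by the receptors of Csf2, Il3 and Il5, and Il3ra (0.32). The median was 0.32. The counts of this and the following lists stand beside 11.5% called higher and 25.4% called in either direction among all genes tested. Il34, the other ligand of Csf1r, changed by 0.18 (SE 0.090, limma adjusted p = 0.177). Csf2ra was at 0.043 (SE 0.11) and Csf3r at 0.33 (SE 0.20), neither of them called. The ligands Csf2, Csf3, Il3 and Il5, and the receptor chain Il5ra, were too dim to be tested.

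Of 18 genes for Csf1r signalling and macrophage transcription factors, 5 were called higher and 2 lower (median 0.37). Cebpb, a transcription factor of inflammatory and injury responses, rose by 0.73 (SE 0.13), and Sh2b3, an adaptor that dampens cytokine signalling, by 0.43 (SE 0.080). The adaptor Grb2 (0.43) and the kinase Src (0.34), both present in most cells, also rose. Runx1 fell by 0.43 (SE 0.076), and is also a transcription factor of nociceptive sensory neurons. Mitf fell by 0.42 (SE 0.13). Spi1, which encodes PU.1, stood at 0.16 (SE 0.073, limma adjusted p = 0.129), and Pik3r1 at 0.027.

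Of 15 Tyrobp and Trem2 partners, 5 were called higher and 0 lower (median 0.30). Lgals3, which encodes a galectin that can bind Trem2, rose by 1.66 (SE 0.082, limma adjusted p = 5.04e-07), Fcer1g, the adaptor most like Tyrobp, by 0.66 (SE 0.22), the secreted protein Spp1 by 0.58 (SE 0.14), Gpnmb by 0.30 (SE 0.088) and the protease Ctsd by 0.26 (SE 0.075). Syk, the kinase recruited by Tyrobp, changed by 0.19 (SE 0.22) and Apoe by 0.094 (SE 0.17), and neither was called. Trem1 was at 0.037.

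Of 12 genes of the Cd14 receptor complex, 7 were called higher and 0 lower (median 0.50). Beside Cd14, the adaptors Ticam1 (0.78, SE 0.091) and Myd88 (0.67, SE 0.091), the Tlr4 partner Ly96 (0.59, SE 0.10), Tlr1 (0.44) and the integrin chains Itgb2 (0.50) and Itgam (0.50) rose. Tlr4 itself was at -0.22 (SE 0.099, limma adjusted p = 0.128), Tlr2 at 0.34 and Tlr6 at 0.12, with no call.

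Of 24 pan-macrophage genes 3 were called higher and 2 lower (median 0.43). Of all genes tested 11.5% were called higher, a share near that of this list, and 2911 of 20898 were called lower. The Fc receptors Fcgr1 (1.06, SE 0.23) and Fcgr2b (0.98, SE 0.20) and Itgam (0.50) rose. Coro1a, an actin regulator, fell by 0.56 (SE 0.080), and is also expressed by neurons. The complement genes C1qa (0.80), C1qb (0.72) and C1qc (0.55) and the leukocyte phosphatase Ptprc (0.82) were not called, and their injured and uninjured arrays overlapped.

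The macrophage types were read from their own lists, beside 2399 called higher and 2911 called lower among all 20898 genes tested. Of 14 resident and perivascular macrophage genes 1 was called higher and 0 lower (median 0.33): Cbr2, a carbonyl reductase, rose by 0.76 (SE 0.25, limma adjusted p = 0.0453), while Timd4 was at 0.018. Of 7 microglia genes 0 were called higher and 1 lower (median 0.020), the fructose transporter Slc2a5 (-1.02, SE 0.072); P2ry12 was at 0.024. Of 11 blood monocyte genes 2 were called higher and 0 lower (median 0.39), Plac8 (1.36, SE 0.31) and Ly6c1 (0.90, SE 0.11), the latter also expressed by endothelial cells. Ccr2, the receptor that draws monocytes into tissue, changed by 0.49 (SE 0.25) and was not called. Without injured arrays 2 and 4 the calls were 2 higher for the Csf family, 4 higher and 1 lower for Csf1r signalling, 1 for the Tyrobp and Trem2 partners, 5 for the Cd14 complex, 2 higher and 1 lower for pan-macrophage genes and 0 for resident genes, beside 1370 higher and 1629 lower among all genes.

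**Figure D4:**
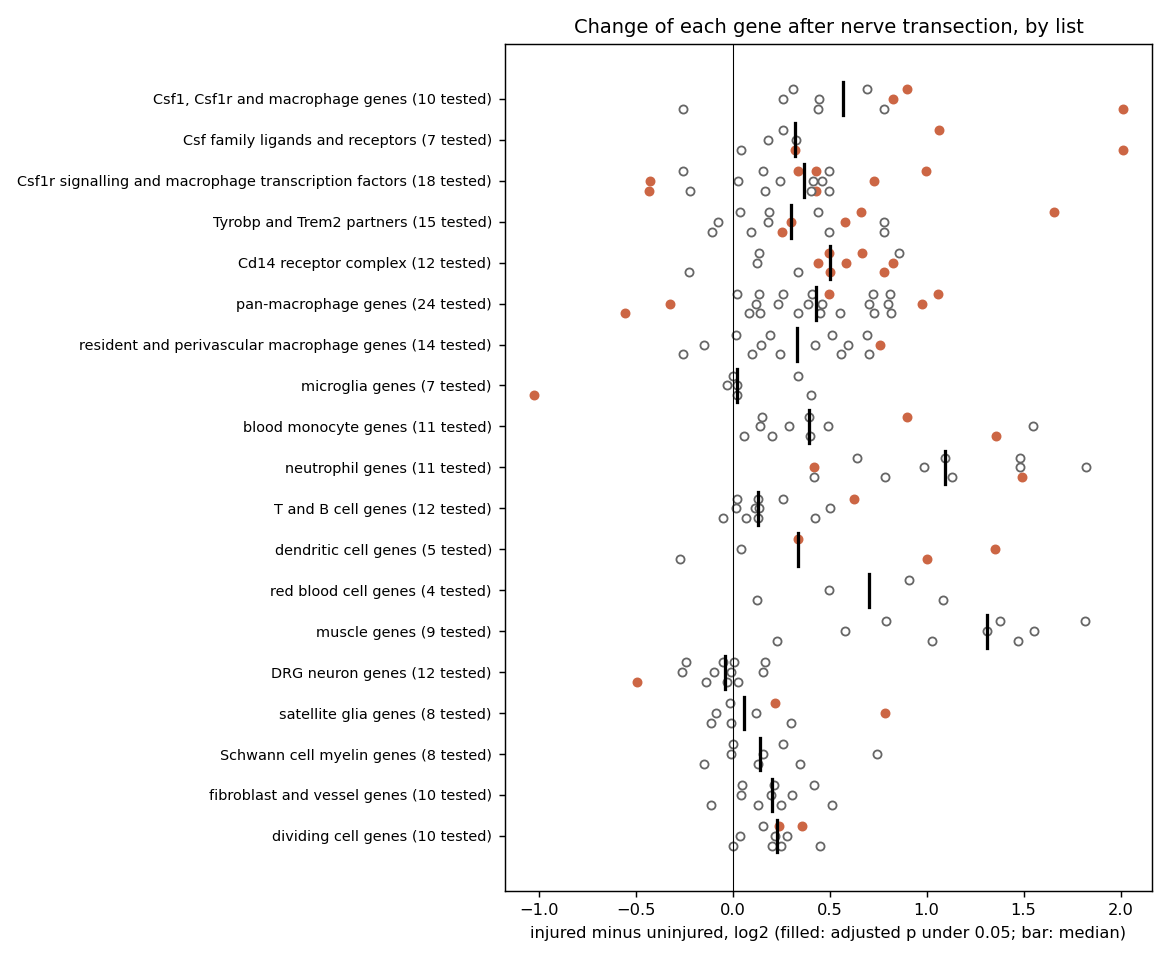
Change (injured minus uninjured, log2) of each gene tested in 19 lists, with the number tested in brackets; filled circles passed the test and bars mark medians. The set of 10 genes has a median of 0.57, and the other Csf, macrophage and monocyte lists have medians between 0.30 and 0.50. The microglia list lies near 0, and the neutrophil and muscle lists have medians of 1.1 and 1.31 with open circles far to the right.

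Genes with the values most like those of Csf1, Csf1r and Tyrobp were found over the 9 arrays as the smallest root-mean-square difference, each gene centred on its uninjured mean, among 16466 genes. For Csf1 these were Speer6-ps1 (0.11), Sdc1 (0.16), a cell-surface proteoglycan, Csrnp1 (0.16), Rhoq (0.17) and Serpinb5 (0.17). For Csf1r they were Tor4a (0.085), Unc45b (0.094), Tmem44 (0.10), Nupr1 (0.10) and Bmp4 (0.10). For Tyrobp they were Clec4a2 (0.086), Ptprc (0.088), Ctss (0.089), Clec4b1 (0.093) and Arhgdib (0.12), all expressed by leukocytes. The measure reflects size and array pattern only.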

How the data were processed

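Scanner files held spot intensity for both dyes, deposited by the authors as Agilent Feature Extraction 10.5.1.1 output (no dye swap). The deposited files also held Agilent's log10 ratio, and a deposited table gave the authors' log2 ratios, for which the labels name limma; both served as alternatives. On that table the scale and direction followed the arrays, with column medians of 0.020 to 0.024; further steps are not given in the sources used here. Precision was limited by 9 arrays.

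Backgrounds were corrected with normexp (offset 50), leaving spots with non-uniform background out of the fit, and arrays were normalised by loess. Spots marked as non-uniform were dropped and repeated spots averaged. Probes needed a Cy5 signal well above background on 4 or more arrays, and the brightest stood for its gene. limma 3.58.1 in R 4.3.3 (lmFit, eBayes) compared all 9 arrays, with Benjamini-Hochberg adjustment and calls at 0.05. 34 genes lacked a value on some array, none of them a member of the gene set. Named genes were the members, up to 4 largest calls and the smallest change per list, and nearest patterns; further list genes were named after their values were seen. The test was checked on simulated data, drawn independently for each gene and array. The simulation held no slide effects and no shifts shared between genes, so the check does not cover these. The genes, lists and tests were chosen with earlier results of these data known. Lists served as descriptions, with no set test, and some of their genes are not reported here.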

Additional observations from a re-analysis of the deposited data

How the results depend on the processing

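No paired analysis was possible because replicate numbers are names in accession order. Csf1 was called under every alternative but the slide that held both groups alone, where its change was 2.07 (adjusted p = 0.0523), 0 of the 10 genes and 131 of all genes were called with 1 uninjured array. Slide as a fixed block called 1 of the 10 (Csf1) and 1176 genes, and slide as a random block, with a negative correlation of -0.207 within slides, called 6 of the 10 and 7407 genes. Leaving out each array called 3 to 6 of the 10. Median centring in place of loess called 2638 genes, leaving out injured arrays 2 and 4 called 2999, and requiring more than 1.5-fold called 1229, against 5310. Cd163 changed sign with Agilent's log ratio (0.053) and with slide as a fixed block or within that slide (0.11). Mrc1 was called on Cy5 alone (0.78, adjusted p = 0.0357). The excess of the Csf1 over the Csf1r change lay between 1.43 with slide as a fixed block and 2.03 without injured array 5. The cause of these differences was not tested.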

Other observations

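Of 5 dendritic cell genes tested, 3 were called higher (median 0.34). They were Batf3 (1.35, SE 0.13), a transcription factor that pairs with Jun proteins, Zbtb46 (1.00, SE 0.17) and Itgax (0.34, SE 0.090). Flt3 was at -0.27 (SE 0.13) and Xcr1 at 0.042 (SE 0.081), neither of them called. Clec9a, Cd209a and Ccr7 were not tested. Without injured arrays 2 and 4, 2 of the 5 were called. The counts in this paragraph for all arrays stand beside 2399 called higher and 2911 called lower among all 20898 genes tested. Of 12 T and B cell genes 1 was called higher, Lck (0.63, SE 0.14), and Cd3e was at 0.26. Of 8 satellite glia genes 2 were called higher: Glul, which encodes glutamine synthetase (0.78, SE 0.088), and the glutamate transporter Slc1a3 (0.22, SE 0.068). Of 10 dividing cell genes 2 were called higher, Birc5 (0.36) and Pcna (0.24), and 0 without injured arrays 2 and 4. Of 8 Schwann cell myelin genes 0 and of 10 fibroblast and vessel genes 0 were called, with medians of 0.14 and 0.21. Of 12 DRG neuron genes 1 was called lower, the transcription factor Isl1 (-0.49, SE 0.061).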
